A study of Mus musculus with 9 samples.

Results

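The genes that encode the steroid hormone receptors were examined in the chromatin of mouse oviductal muscle. They are the progesterone receptor gene Pgr, the estrogen receptor α gene Esr1, the estrogen receptor β gene Esr2, the glucocorticoid receptor gene Nr3c1 and the mineralocorticoid receptor gene Nr3c2, 5 of 21853 protein-coding genes. For each gene every peak that overlapped the gene body or the 50 kb on either side was taken from the 6 replicate lists and the 2 pooled lists. A peak was a promoter peak when it met the 1 kb either side of a protein-coding transcript start, an intragenic peak when it met the rest of the gene body, and a flanking peak otherwise. The replicate lists held 141 to 200 such peaks, of 93684 to 152889 peaks in all.

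The cells were primary oviductal muscle cells of WT mice, 8 to 12 weeks old, on Day 2 of pregnancy after mating. They were freed from oviduct pieces by enzymes, filtered and kept in a dish for a few hours, first in medium with charcoal-stripped serum, which is depleted of steroid hormones, and then in medium with ordinary serum. ChIC-Seq, in which an antibody brings protein A fused to MNase to chromatin and the fragments it cuts are sequenced, was run on 50000 cells per library and 3 libraries each were made with antibodies to H3K27ac and H3K4me1 and with control IgG. There was no second genotype, day or treatment among these samples, so the comparison the design allows is that of the marks. The labels do not say whether replicates came from separate animals, and p-values then measure the spread between these libraries.

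Steroid receptors are transcription factors that a lipid-soluble hormone switches on. Without hormone they are held by chaperones of the HSP90 machine. With hormone they bind DNA at paired half-sites and recruit coactivators, many of which acetylate histones. In the oviduct, estrogen and progesterone set the contraction of the muscle and the beating of the cilia that carry the embryo toward the uterus, and glucocorticoid and mineralocorticoid receptors are closely related proteins that share ligands. H3K27ac lies at active promoters and enhancers. H3K4me1 lies at enhancers and on the shoulders of promoters, and is often low at the start of a transcribed gene. Neither mark measures mRNA, protein or receptor binding.

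The calls used 40551842 to 78891920 treatment fragments against 3110985 to 3713369 IgG fragments, and the larger library of each call had been scaled down to the IgG depth, where the genome mean was 0.214 to 0.263 fragments per base. IgG replicate 2 served H3K27ac replicate 2 and H3K4me1 replicates 1 and 2, and IgG replicate 3 served replicate 3 of both marks, so these lists are not fully independent. H3K27ac replicate 1 stood apart with 152889 peaks over 145 Mb, against 93684 and 99035 peaks in the other H3K27ac lists. It was the only replicate list called against IgG replicate 1, the deepest control with 3713369 fragments, so library and control cannot be told apart. Promoter peaks in all 6 lists were found at 5 of 12 smooth muscle markers, among them Acta2 and Des but not Myh11 or Myocd, and at 7 of 10 stromal markers. They were found at 0 of 10 epithelial, 0 of 8 endothelial, 0 of 8 blood cell and 0 of 6 mesothelial markers, against 24.3% of all protein-coding genes. H3K27ac considered by itself was in all 3 replicates at 5 of 12 smooth muscle, 9 of 10 stromal and 0 of 10 epithelial markers. It was so at 1 of 8 endothelial (Emcn), 2 of 8 blood cell (Ptprc and Cd68) and 1 of 6 mesothelial (Wt1) markers, against 45.9% of all genes. The muscle label was thus met in part, and the shares of stromal and other cells in the preparation were not tested.

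The promoter sequences show where the receptor genes start and which bases the peaks below refer to. RefSeq's table of promoters on GRCm38, 300 bases each with 250 before and 50 after the start, held 4 of the 5 genes, Esr1 with 2 starts. They are written along the direction of transcription. Capitals mark matches, on either strand, to GGGCGG (the GC box bound by SP proteins) or GGAATG (the motif of TEAD factors). Also searched on both strands were GGTCANNNTGACC (the estrogen response element), its half-site AGGTCA, whose GGTCA lies within the full element, GNACANNNTGTNC (the element of the progesterone, glucocorticoid and mineralocorticoid receptors), TGANTCA (AP-1) and the CArG box of serum response factor.
Pgr, chr9:8899583-8899882, plus strand: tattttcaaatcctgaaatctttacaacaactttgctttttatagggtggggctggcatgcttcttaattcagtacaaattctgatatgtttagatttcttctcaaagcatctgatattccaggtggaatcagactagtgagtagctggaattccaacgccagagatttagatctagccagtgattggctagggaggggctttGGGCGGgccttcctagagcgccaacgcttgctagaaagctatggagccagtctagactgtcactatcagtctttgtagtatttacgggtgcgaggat
Esr1, first start, chr10:4611739-4612038, plus strand: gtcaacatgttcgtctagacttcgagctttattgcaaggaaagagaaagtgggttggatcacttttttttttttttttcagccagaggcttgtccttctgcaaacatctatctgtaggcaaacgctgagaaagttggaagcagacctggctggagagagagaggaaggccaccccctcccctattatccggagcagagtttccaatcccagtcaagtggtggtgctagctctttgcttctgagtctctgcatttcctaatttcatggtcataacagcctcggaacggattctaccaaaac
Esr1, second start, chr10:4709908-4710207, plus strand: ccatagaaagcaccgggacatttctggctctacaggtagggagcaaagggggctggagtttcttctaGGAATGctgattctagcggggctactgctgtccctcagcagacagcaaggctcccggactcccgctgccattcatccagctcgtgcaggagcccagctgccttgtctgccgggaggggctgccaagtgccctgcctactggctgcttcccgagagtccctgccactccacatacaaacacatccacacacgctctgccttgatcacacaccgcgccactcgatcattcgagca
Esr2, chr12:76177210-76177509, minus strand: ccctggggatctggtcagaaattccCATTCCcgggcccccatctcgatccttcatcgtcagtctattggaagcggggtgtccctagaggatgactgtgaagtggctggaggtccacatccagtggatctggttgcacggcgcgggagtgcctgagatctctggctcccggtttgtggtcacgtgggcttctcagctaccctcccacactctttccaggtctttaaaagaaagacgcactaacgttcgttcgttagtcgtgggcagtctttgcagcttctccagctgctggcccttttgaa
Nr3c2, chr8:76902080-76902379, plus strand: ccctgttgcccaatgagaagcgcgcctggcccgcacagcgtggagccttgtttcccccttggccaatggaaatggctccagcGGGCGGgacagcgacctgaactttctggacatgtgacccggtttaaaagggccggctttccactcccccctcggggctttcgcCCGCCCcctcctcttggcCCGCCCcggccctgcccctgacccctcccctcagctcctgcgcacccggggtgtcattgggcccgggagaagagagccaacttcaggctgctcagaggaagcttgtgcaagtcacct

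The GC box occurred once in the Pgr promoter and 3 times in that of Nr3c2, and 35.7% of the 32851 promoters of the table held one. A TEAD motif occurred in the second Esr1 promoter and in the Esr2 promoter, against 14.7% of all promoters. The estrogen response element was in 0.0700% of promoters, the half-site in 16.3%, the element of the progesterone and corticoid receptors in 0.475%, AP-1 in 7.81% and the CArG box in 1.63%, and these letters were in none of the 5 receptor windows. GC content was 43.7% for Pgr, 46.3% and 59.3% for the Esr1 starts, 56.0% for Esr2 and 65.7% for Nr3c2. The ratio of CpG observed to that expected from the base content was 0.373 to 0.595, between the values of 49.0% and 63.9% of promoters, so none of these windows was extreme in CpG.

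Peaks covered these windows unequally. The 300 bases at the first Esr1 start and at the second were covered wholly by H3K27ac in all 3 replicates. Those of Pgr were covered wholly by H3K27ac in replicates 2 and 3 and not in replicate 1, whose peak began 167 bases after the start, at 8900000. H3K4me1 covered 100%, 100% and 95.7% of the Pgr window in replicates 1, 2 and 3. The Esr2 window was covered by H3K27ac in replicate 1 alone, and the Nr3c2 window by H3K4me1 in replicates 1 and 2 alone.

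Next, the share of each gene with its 50 kb flanks that lay in peaks was measured, with the median over all protein-coding genes at 4.97% for H3K27ac and 4.45% for H3K4me1. Pgr was the most densely covered receptor gene. Its H3K27ac share was 40.8%, 34.6% and 32.5% in replicates 1, 2 and 3, and its H3K4me1 share was 27.1%, 35.8% and 39.1%. The mean of 36.0 ± 4.33% for H3K27ac (SD, n = 3) exceeded that of 99.8% of genes, and the mean of 34.0 ± 6.23% for H3K4me1 (SD, n = 3) exceeded that of 99.7%. The marks overlapped in range.

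Esr1 came second. H3K27ac covered 31.1%, 22.3% and 19.0% of its window and H3K4me1 covered 24.9%, 29.3% and 30.6%. The means were 24.1 ± 6.28% and 28.2 ± 2.99% (SD, n = 3), above 98.1% and 98.9% of genes, over a window of 494022 bp. The ranges of Pgr and Esr1 did not meet for H3K27ac, and they met for H3K4me1.

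Nr3c1 came next, and its marks differed in extent. H3K27ac covered 12.8%, 11.3% and 12.2% of its window, and H3K4me1 covered 18.7%, 19.8% and 21.3%. The means were 12.1 ± 0.762% and 19.96 ± 1.32% (SD, n = 3), above 83.6% and 95.7% of genes.

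Nr3c2 and Esr2 were sparse. Nr3c2 had H3K27ac shares of 4.49%, 1.68% and 1.18% and H3K4me1 shares of 4.63%, 4.35% and 2.65%. Esr2 had H3K27ac shares of 2.88%, 1.26% and 2.32% and H3K4me1 shares of 1.73%, 1.27% and 4.54%. The mean shares of these genes, 2.15% to 3.88%, were below the medians of all genes for either mark, and the values of Nr3c2 and Esr2 overlapped, so their order is not fixed. In the preparation as a whole, a low share from few cells of a type and a low share in every cell cannot be told apart.

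**Figure D1:**
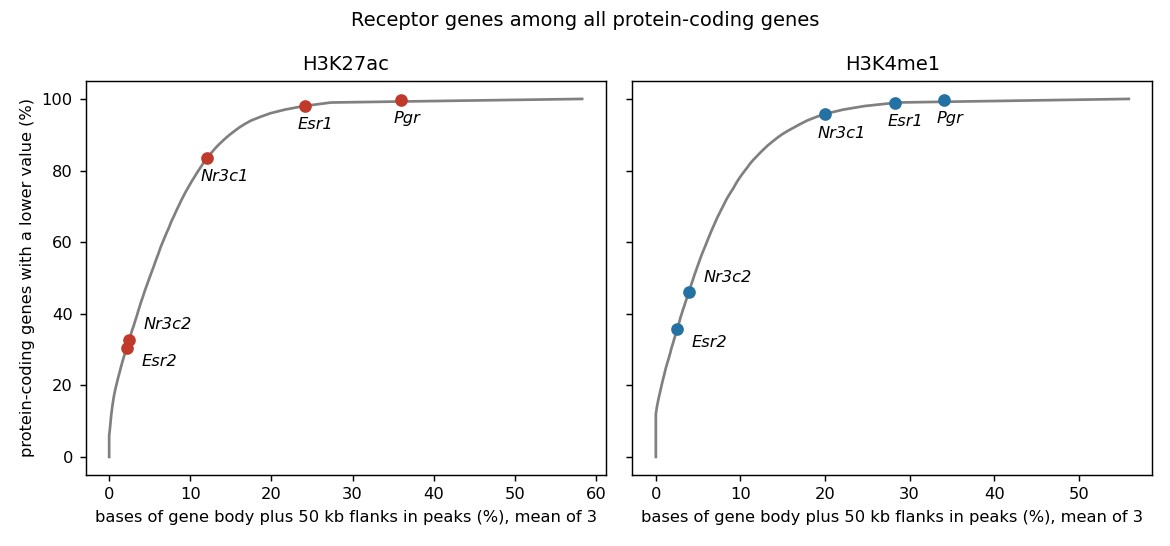
Share of the gene body plus 50 kb flanks in peaks (x axis, %, mean of 3 replicates) against the percent of protein-coding genes with a lower value (y axis), for H3K27ac (left) and H3K4me1 (right). The grey line is the distribution over 21853 genes and the points are the receptor genes. Pgr and Esr1 lie at the upper end for both marks, Nr3c1 at 83.6% for H3K27ac and 95.7% for H3K4me1, and Esr2 and Nr3c2 in the lower part.

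To ask whether the marks differed in extent, the mean share of H3K27ac was compared with that of H3K4me1 by an exact permutation test, two-sided, over all genes. With 3 lists against 3 its smallest p is 0.1, so no gene could pass 0.05. Nr3c1 was the receptor gene whose window shares did not overlap, with a difference of −7.84 percentage points (exact permutation p = 0.1, adjusted over all genes p = 0.317, the smallest adjusted value of any gene). H3K27ac was below H3K4me1 in every list at 13.2% of all genes. The difference kept its sign when shares were divided by the part of the genome each list covers, when flanks were 25 or 100 kb, and when any one library was left out, with values of −8.47 to −7.15 in the last case. With all peaks, the marks overlapped for the other 4 genes, with differences of 1.93 for Pgr, −4.12 for Esr1, −0.362 for Esr2 and −1.43 for Nr3c2 (exact permutation p = 0.7, 0.4, 0.8 and 0.3). Stricter peaks separated the lists of other receptor genes too, and the share of all genes so separated is not given here. With peaks of a −log10 p of at least 1.3 the difference was 9.57 for Pgr and −0.257 for Nr3c2, and with peaks of at least 5 times the mean genome coverage it was −8.56 for Esr1 and −2.73 for Nr3c2, each without overlap (exact permutation p = 0.1). The coverage rule removed peaks unequally. At Esr1 it kept 36 of 101, 64 of 81 and 70 of 79 peaks in H3K27ac replicates 1, 2 and 3. In H3K4me1 it kept 83 of 85, 72 of 85 and 82 of 87. With all peaks, the Esr1 and Nr3c2 differences were −7.61 and −2.44 without H3K27ac replicate 1, and −1.54 and −0.790 without H3K27ac replicate 3. The sign of the Pgr, Esr1 and Esr2 differences changed under other settings.

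**Figure D2:**
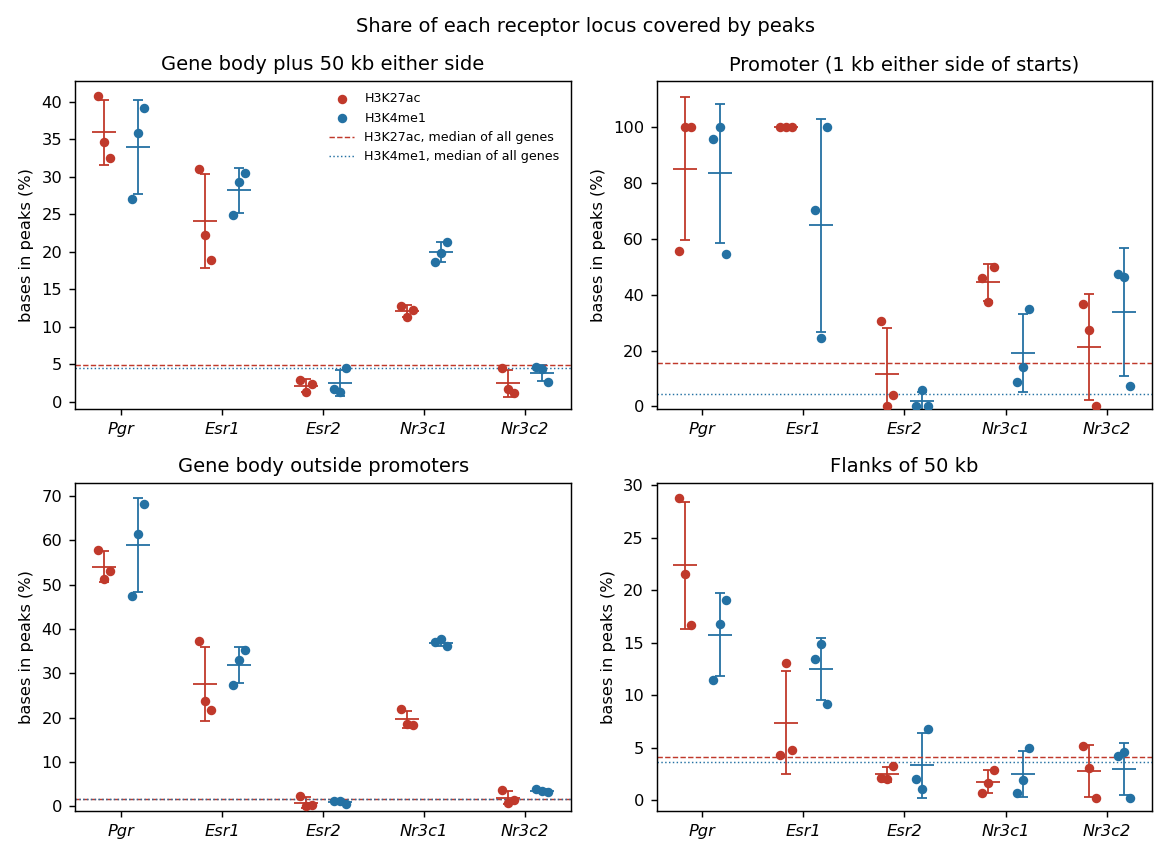
Percent of bases in peaks (y axis) for each receptor gene (x axis) over the gene body with flanks, the promoters, the gene body outside promoters and the flanks. Points are the 3 replicates in order, the horizontal tick and bar are mean and SD, and the dashed and dotted lines are medians of all genes. At Nr3c1 the H3K27ac points lie above H3K4me1 in the promoter panel (44.4 against 19.1%) and below it in the gene body panel (19.6 against 37.0%).

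Split by compartment, Nr3c1 moved in opposite directions. Over its promoter windows, H3K27ac covered 46.1%, 37.3% and 50.0% and H3K4me1 covered 8.60%, 14.0% and 34.8%. The means were 44.4 ± 6.53% and 19.1 ± 13.9% (SD, n = 3), with H3K27ac above H3K4me1 in every list (exact permutation p = 0.1, adjusted p = 0.358). This order of the lists was found at 26.2% of all genes. With only peaks of a −log10 p of at least 1.3 the difference was 24.0 percentage points (exact permutation p = 0.2). Over the rest of the gene body H3K27ac covered 21.9%, 18.6% and 18.3% and H3K4me1 covered 37.0%, 37.7% and 36.2%. The means were 19.6 ± 1.99% and 37.0 ± 0.755% (SD, n = 3), with every H3K27ac list below every H3K4me1 list (exact permutation p = 0.1, adjusted p = 0.579), as at 13.2% of the 21050 genes that have sequence outside promoters. With all peaks of all 6 lists, no other receptor gene separated the marks in a compartment. Leaving out 1 library separated some, among them the Pgr body (−10.7) without H3K4me1 replicate 1 and the Esr1 promoter (52.6) without H3K4me1 replicate 3. Others were the Pgr flanks (9.40) without H3K27ac replicate 3 and the Nr3c2 body (−2.42) without H3K27ac replicate 1 (exact permutation p = 0.1 for each). With peaks of a −log10 p of at least 1.3 the lists did not overlap at the promoters of Pgr and Esr1, with differences of 85.2 and 65.2 percentage points, in the Pgr flanks (5.63) and in the Nr3c2 body (−0.267). With peaks of at least 5 times the mean genome coverage they did not overlap in the bodies of Esr1 (−9.74) and Nr3c2 (−2.63), and divided by the genome share of each list they did not in the Pgr flanks (exact permutation p = 0.1 for each). The shares of all genes separated under these other settings are not given here, so these separations are a description and not a trait of the receptor genes.

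The promoters were then followed start by start. A promoter peak in all 3 replicates was found for H3K27ac at 3 of 5 receptor genes (Pgr, Esr1 and Nr3c1), against 45.9% of all genes, and for H3K4me1 at 4 of 5 (these and Nr3c2), against 27.9%. Both marks were in all 6 lists at 3 of 5 genes, against 24.3%, and 0 of 5 had no promoter peak in any list, against 32.8%. At Nr3c1 no single group of starts had H3K4me1 in all 3 lists, so the gene counts through different starts in different lists. With 5 genes these counts are a description. When only peaks with a −log10 p of at least 1.3 were kept, the same 3 genes had H3K27ac in all replicates and Esr1 alone had H3K4me1 in all replicates. That filter left 13253 to 19637 peaks per replicate list, and the shares of all genes under it are not given here. These filtered counts can therefore not be judged against all genes.

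Pgr has 2 annotated protein-coding starts, at 8899833 and 8900468 on chromosome 9, and both lay near the left end of long H3K27ac peaks. These were 10548, 14006 and 11813 bp wide in replicates 1, 2 and 3, and their fold enrichment over the local IgG background of 2.14, 2.10 and 2.05 exceeded that of 97.0%, 95.8% and 93.5% of the peaks in the same lists. The widest H3K4me1 peaks at the starts were shorter, 3272, 3385 and 1246 bp, and lower, with a fold enrichment of 1.63, 1.64 and 1.54. The widest H3K4me1 peak of the whole window began farther into the gene body, at 8904316, 8903791 and 8902289, and was 10417, 18313 and 16936 bp wide. Sequence between these peaks was free of H3K4me1 peaks in part and lay inside the H3K27ac peak in all 3 replicates.

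Esr1 has starts 98.2 kb apart on chromosome 10, near 4611989 and at 4710155. At the first, H3K27ac peaks of 11092, 4459 and 6702 bp had a fold enrichment of 2.23, 2.15 and 2.44. At the second, they were 18644, 13466 and 15686 bp wide, wider than 99.93% to 99.99% of the peaks of their lists, with a fold enrichment of 2.46, 2.55 and 2.32, above 99.4%, 99.7% and 98.3% of peaks. The fold enrichment at the starts overlapped in range. H3K4me1 came within 1 kb of both starts in all replicates, but covered a base of the first start in 2 lists and the second in 1 list. Its peaks at the second start were 1592 to 3723 bp wide at the 35.3 to 60.3 percentile of fold enrichment, against the 83.9 to 95.9 percentile at the first. H3K27ac covered 100% of the Esr1 promoter windows in each list, and H3K4me1 covered 70.3%, 24.4% and 100%.

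Nr3c1 lies on the minus strand of chromosome 18 with starts in 6 groups. The farthest upstream, at 39519421, had a short H3K27ac peak of 408 bp in replicate 1 and of 203 bp in replicate 3, and no H3K4me1 peak. The 4 groups between 39489283 and 39491301 each had H3K27ac in all 3 replicates. The peaks over 39491299 were 1961, 2790 and 3237 bp wide with a fold enrichment of 2.13, 2.45 and 1.96. H3K4me1 covered a base of these starts in 1 list at 1 group and in none at the other 3. Its long peak lay downstream, and in replicate 3 it spanned 39479283 to 39489066, ending at the base where the H3K27ac peak of replicate 3 began. The last group, near 39487232, had H3K27ac peaks of 181 and 417 bp in 2 lists and lay inside that H3K4me1 peak in replicate 3.

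Nr3c2 has starts in 3 groups on chromosome 8. At the first, near 76899442, H3K27ac was found in replicates 1 and 2 at a fold enrichment of 1.61 in both, and H3K4me1 in replicates 1 and 2 at 1.58 and 1.51. At the second, near 76902288, H3K27ac came within 1 kb in replicate 1 alone, and H3K4me1 did so in all 3. The third, at 76908272, had no peak in any list. H3K27ac thus covered 36.8%, 27.3% and 0% of the promoter windows and H3K4me1 47.5%, 46.5% and 7.24%, and replicate 3 was the lowest for both marks.

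Esr2 had promoter peaks in the fewest lists. Its first start, at 76177259 on the minus strand of chromosome 12, had an H3K27ac peak of 1228 bp in replicate 1 alone and an H3K4me1 peak of 232 bp in replicate 2 alone. Their fold enrichment, 1.70 and 1.96, was above that of the peaks at the first Nr3c2 group. The second start, at 76167715, had an H3K27ac peak of 163 bp in replicate 3 alone, 71 bases away from it. No Esr2 promoter peak was therefore seen at the same start in 2 lists of a mark.

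**Figure D3:**
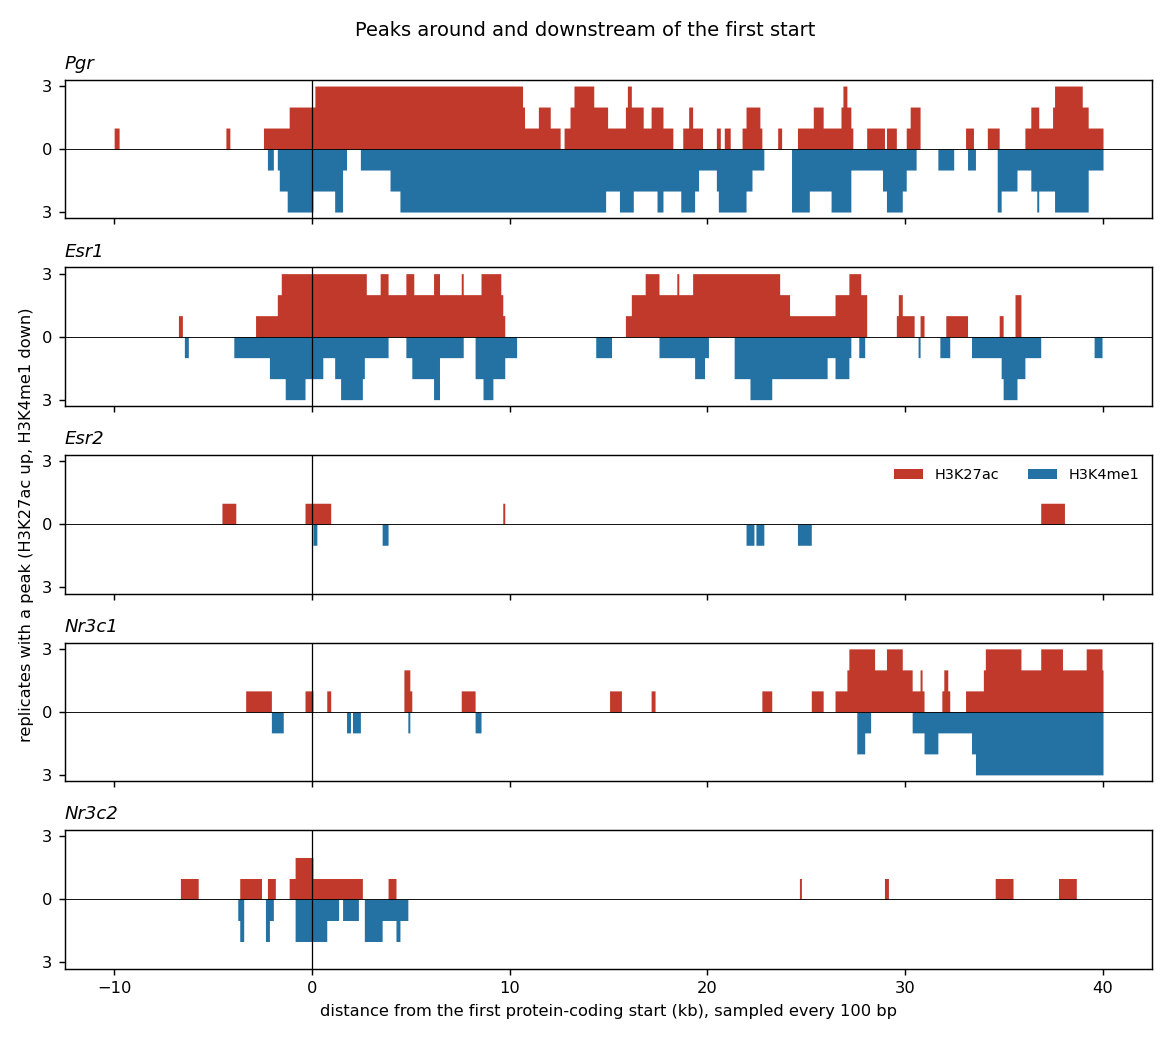
Number of replicate lists (of 3) with a peak at each position (y axis, H3K27ac upward, H3K4me1 downward), every 100 bp from 10 kb upstream to 40 kb downstream of the first protein-coding start (x axis, kb). H3K27ac is continuous from the start of Pgr for about 10 kb and around the first Esr1 start, the block of Nr3c1 begins at its starts in the gene body, and no position of Esr2 and few of Nr3c2 reach 2 lists of a mark.

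Beyond the promoters, peaks covered much of the bodies of Pgr and Esr1. H3K27ac covered 57.9%, 51.3% and 53.0% of the Pgr body outside promoters and H3K4me1 covered 47.5%, 61.4% and 68.1%, while the median gene had 1.65% and 1.76%. For the Esr1 body the shares were 37.2%, 23.8% and 21.7% in H3K27ac and 27.3%, 33.0% and 35.3% in H3K4me1. At the 3′ end of Pgr the widest H3K27ac peaks of replicates 1 and 2, at 8962216 to 8974813 and 8962251 to 8976436, ran across the end of the gene into Gm16485. This predicted protein-coding gene, 3.18 kb away, was the only other gene with a promoter in the Pgr window, and its promoter had peaks in 3 of 3 lists of each mark. The Pgr flanks were covered at 22.3 ± 6.08% by H3K27ac and 15.8 ± 3.94% by H3K4me1 (SD, n = 3), and Esr1's flanks at 7.38 ± 4.90% and 12.5 ± 2.95%.

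Esr1 held 79 to 101 H3K27ac peaks and 85 to 87 H3K4me1 peaks per list, most of them intragenic, with 65 to 92 and 73 to 76. Nr3c1 held 21 to 26 and 19 to 26 peaks, and Pgr 24 to 38 and 27 to 28. The counts of Nr3c2 varied most, with 30, 8 and 12 H3K27ac peaks and 24, 21 and 13 H3K4me1 peaks, the 30 being in H3K27ac replicate 1. Esr2 had 3 to 5 peaks per list. Relative to the genome mean, coverage in the H3K27ac peaks averaged 6.48 to 8.51 times at Pgr and Esr1 and 4.54 to 5.35 times at Nr3c2.

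**Figure D4:**
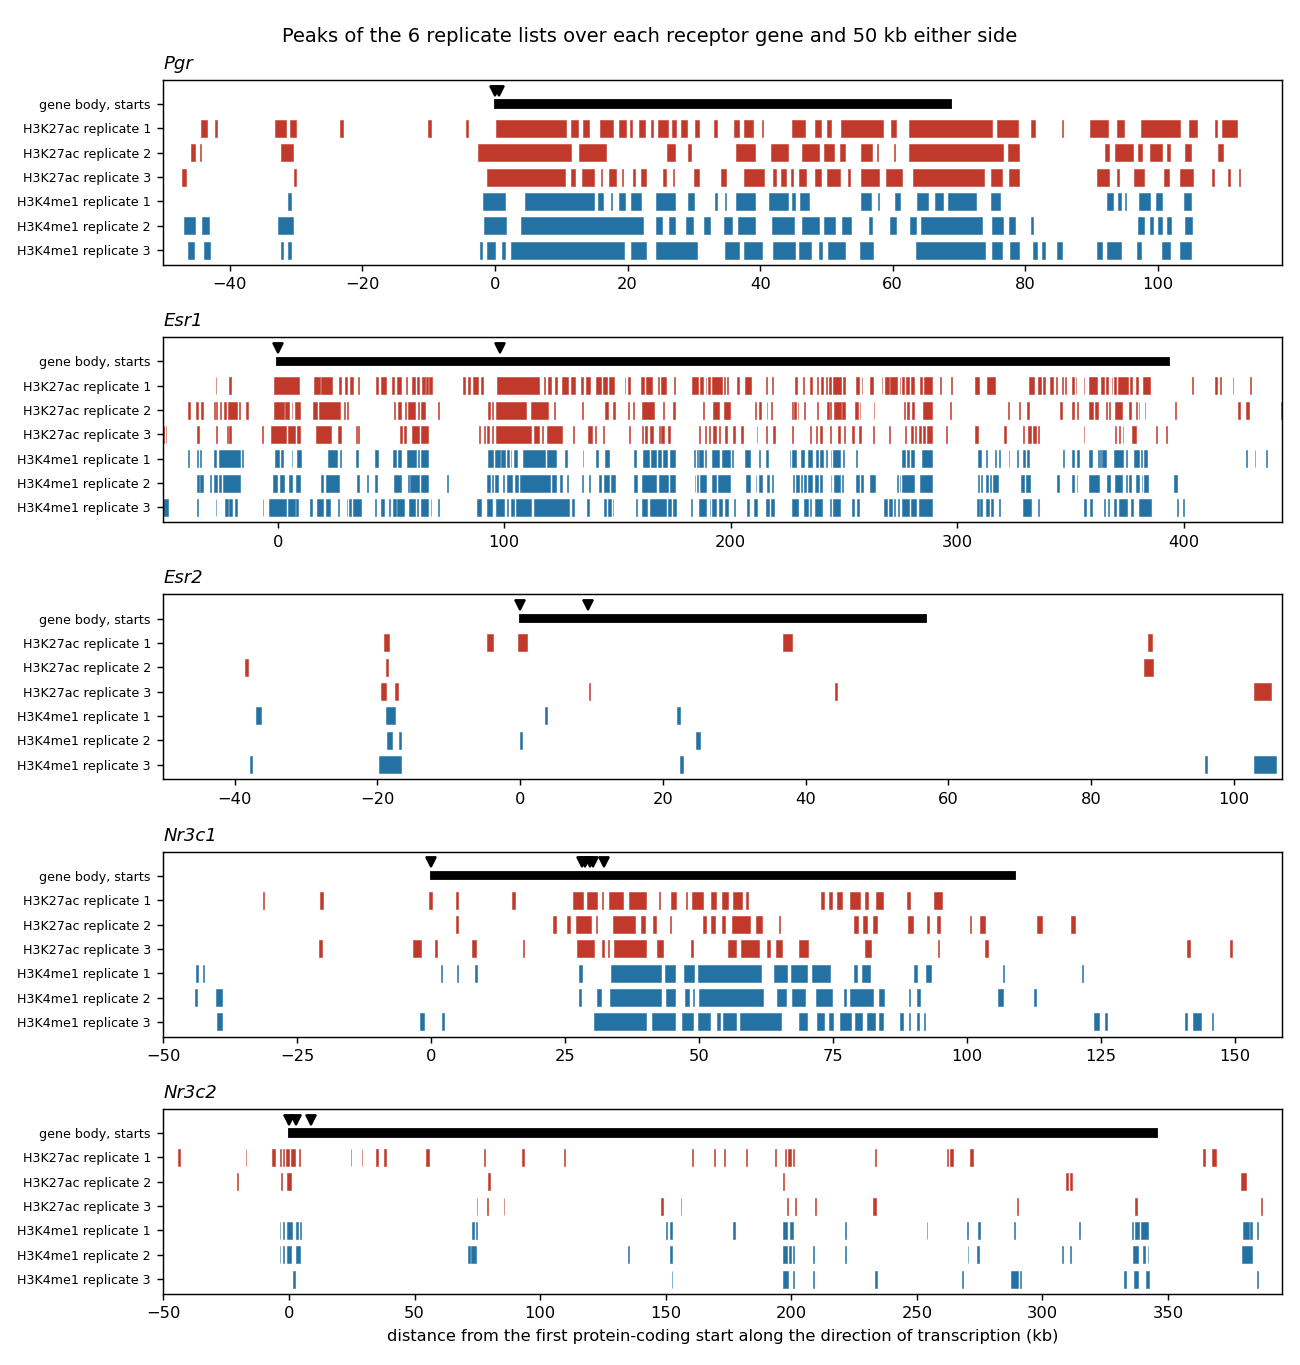
Peaks of the 6 replicate lists (rows, coloured boxes) over each receptor gene and 50 kb either side, by distance from the first protein-coding start along the direction of transcription (x axis, kb). Black bars are gene bodies and triangles groups of starts. Peaks cover much of the body of Pgr, form clusters across Esr1, become dense near the starts 28.1 kb inside Nr3c1, and are scattered over Nr3c2 and Esr2.

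Distal regions were then defined as sequence in at least 2 of 3 replicates of a mark that met no promoter of any protein-coding gene. The 5 windows held 142 such H3K27ac regions, of which 103 (72.5%) overlapped an H3K4me1 region, against 61.3% of 63580 regions genome-wide. Esr1 had 60 of these double-marked regions, Pgr 28, Nr3c1 13, Esr2 2 and Nr3c2 0. They lay in introns 83 times, in exons 5 times and in flanks 15 times. Per 100 kb Pgr had 16.6, more than 99.9% of genes, Esr1 12.1 and Nr3c1 6.22, with a median of 0.797 over all genes. Of the 103 regions, 33 were in all 6 lists, 21 of them at Esr1, 9 at Pgr and 3 at Nr3c1.

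The counts were lower under stricter rules. Leaving out a library also meant that both remaining lists of its mark were required, and every such count was below 103, at 61 to 87. When H3K27ac replicate 1 was left out, 61 double-marked regions were found, with 36 at Esr1, 18 at Pgr, 7 at Nr3c1 and 0 at Esr2, and Esr1 had 38 without H3K27ac replicate 2. Pgr had 18 without H3K4me1 replicate 3. With peaks of a −log10 p of at least 1.3 there were 2, both at Esr1.

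Nr3c2 differed from the other receptor genes in the kind of its distal regions. It had 20 distal H3K4me1 regions and 3 distal H3K27ac regions, and none overlapped. In the pooled lists, called on the 3 replicates together, Nr3c2 had 1 double-marked region and Pgr 15. The reverse share, H3K4me1 regions that met H3K27ac, was 81.5% at Pgr, 63.9% at Esr1, 37.5% at Nr3c1, 50.0% of 2 regions at Esr2 and 0% at Nr3c2, against 36.9% of 92173 regions genome-wide.

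**Figure D5:**
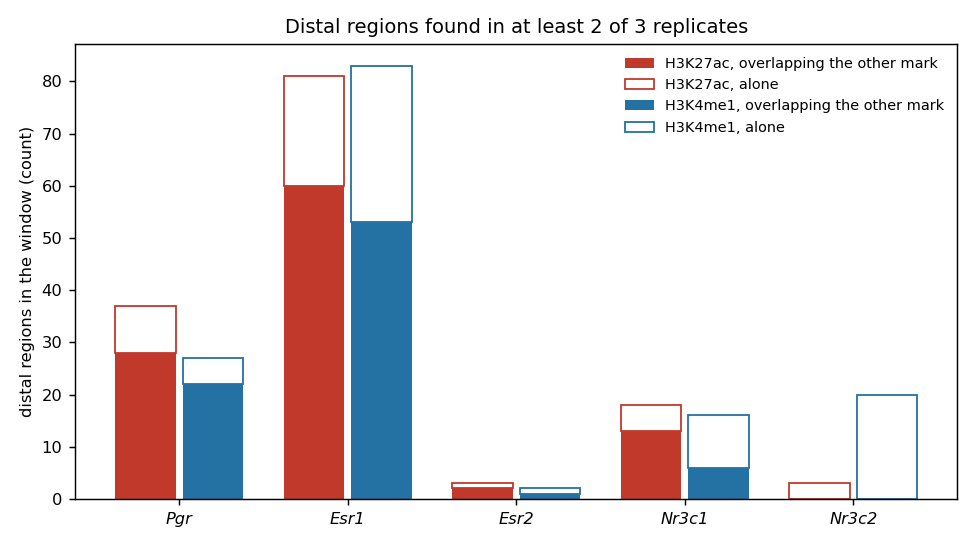
Number of distal regions (y axis) found in at least 2 of 3 replicates for H3K27ac (red) and H3K4me1 (blue) in each receptor window (x axis), filled where they overlap a region of the other mark and open where they do not. Esr1 has 60 and Pgr 28 filled H3K27ac regions, and the 20 H3K4me1 regions of Nr3c2 are all open.

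The double-marked region of highest mean coverage in the Pgr, Esr1 and Esr2 windows is shown by 300 bases around its midpoint on the plus strand, to place the distal values on sequence. The Esr2 region has 281 bp, so its printed bases run past it on both sides. Capitals mark matches to AGGTCA, read as TGACCT on this strand, and to GGAATG, read as CATTCC.
Pgr, chr9:8913715-8914014, intron, 13.4 kb after a start: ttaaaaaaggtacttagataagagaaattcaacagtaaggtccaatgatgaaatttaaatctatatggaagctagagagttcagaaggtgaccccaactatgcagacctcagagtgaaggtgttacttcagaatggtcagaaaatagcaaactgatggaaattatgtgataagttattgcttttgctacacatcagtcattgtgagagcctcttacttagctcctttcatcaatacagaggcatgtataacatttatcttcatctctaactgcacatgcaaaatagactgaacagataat
Esr1, chr10:4590798-4591097, flank, 21.0 kb before a start: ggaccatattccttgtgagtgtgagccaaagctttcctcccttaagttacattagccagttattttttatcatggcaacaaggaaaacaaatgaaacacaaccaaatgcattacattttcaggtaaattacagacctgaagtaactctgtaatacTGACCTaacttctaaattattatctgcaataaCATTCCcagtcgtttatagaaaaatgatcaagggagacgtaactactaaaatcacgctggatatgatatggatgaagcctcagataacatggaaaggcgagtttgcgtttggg
Esr2, chr12:76195712-76196011, flank, 18.6 kb before a start: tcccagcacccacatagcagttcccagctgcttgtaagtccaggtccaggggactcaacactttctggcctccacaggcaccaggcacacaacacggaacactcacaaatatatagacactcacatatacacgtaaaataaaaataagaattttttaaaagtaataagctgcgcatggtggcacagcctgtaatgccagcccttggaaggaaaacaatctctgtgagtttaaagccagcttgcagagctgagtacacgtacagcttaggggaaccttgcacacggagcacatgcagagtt

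The Pgr region, 1896 bp long, was in all 6 lists. Coverage was averaged over the region with bases outside called peaks set to 0, so that it also reflects how much of the region was called. It was 2.69, 6.31 and 6.25 times the genome mean in H3K27ac and 6.89, 7.78 and 7.95 times in H3K4me1, where peaks filled 52.0%, 100% and 100% and 95.8%, 100% and 100% of the region. None of the motifs searched was in its printed bases. The Esr1 region, 805 bp long, was also in all 6 lists, at 8.17, 6.35 and 8.58 times in H3K27ac and 7.29, 7.51 and 9.56 times in H3K4me1. Its printed bases held 1 estrogen response element half-site and 1 TEAD motif, which 17.5% and 16.8% of the 39000 double-marked distal regions of the genome hold. The Esr2 region was at 8.74 and 9.33 times in H3K27ac replicates 1 and 2 and at 10.2, 10.8 and 8.46 times in H3K4me1, and it had no called H3K27ac peak in replicate 3. RefSeq's genome marks 48.7% of the 300 bases printed for it as repeat, 0% of those of Pgr and 15.7% of those of Esr1, with a median of 13.3% over all double-marked regions. The full estrogen response element was in 0.0821% of these regions, the element of the progesterone and corticoid receptors in 0.741%, AP-1 in 13.5%, the GC box in 3.24% and the CArG box in 1.86%.

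Other strong regions lay in Esr1 and Nr3c1. In the first Esr1 intron, 20.1 kb after the first start, a region of 8006 bp at 4628093 to 4636098 had H3K27ac at 12.0, 10.6 and 12.8 times the genome mean and H3K4me1 at 1.68, 3.45 and 5.24 times. H3K4me1 peaks filled 24.5%, 43.1% and 53.1% of it, against 84.5% to 91.5% for H3K27ac, and inside the called peaks the coverage was 6.87, 8.02 and 9.86 times against 11.9 to 15.1 times. In Nr3c1, an intronic region of 6122 bp, 4.82 kb after a start, had H3K27ac at 4.74, 5.16 and 6.59 times and H3K4me1 at 8.97, 9.26 and 10.3 times. H3K27ac peaks filled 83.1%, 78.5% and 98.9% of it and H3K4me1 peaks all of it.

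The genes whose pattern was most like that of each receptor gene were sought over the 18 shares of promoter, body and flank in the 6 lists, by Euclidean distance. They were Sec61g and Wls for Pgr, at 58.0 and 58.7 percentage points against a median distance of 227, Sgo1 and Smurf2 for Esr1, at 40.2 and 43.5 against 194, and Mib1 and Rmnd5a for Nr3c1, at 24.6 and 25.7 against 109. For Esr2 they were Pm20d1 and Scgb2a2, at 7.49 and 9.19 against 54.4, and for Nr3c2 Vash1 and Sgcb, at 19.8 and 24.1 against 81.8. The nearest genes lie below the median distance by selection, so the distances are a description. Window shares could still differ, with 17.1% in H3K27ac and 13.7% in H3K4me1 at Sec61g and 28.7% and 32.2% at Wls. They were 15.3% and 12.5% at Sgo1 and 20.1% and 22.3% at Smurf2. Besides Gm16485, Syne2, which encodes a nuclear envelope protein, had starts in a receptor window, that of Esr2, and the 2 of its 9 starts that lie in the window had a peak within 1 kb in 1 of 3 lists of each mark.

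Among 42 other nuclear receptor genes, H3K27ac was at the promoter of 24 (57.1%) and H3K4me1 at that of 16 (38.1%) in all 3 replicates, against 45.9% and 27.9% of all genes. Both marks were in all 6 lists at 12 (28.6%), against 24.3%, and 10 (23.8%) had no promoter peak, against 32.8%. The median window share was 6.50% for H3K27ac and 6.19% for H3K4me1. Of those with both marks, the promoters covered most were of the retinoic acid receptor genes Rara (mean of 60.2% over the 6 lists) and Rarg (47.2%), the orphan receptor gene Nr4a1 (48.3%), the testicular receptor genes Nr2c2 (43.3%) and Nr2c1 (40.9%), and the circadian receptor gene Rora (39.8%). Of the 10 genes without a promoter peak in any replicate list, the first 6 in alphabetical order were Esrrb, Hnf4a, Nr0b2, Nr1i2, Nr1i3 and Nr2e1.

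Among 29 genes that supply or remove steroids, or that encode the receptors' chaperones and membrane partners, 20 (69.0%) had H3K27ac, 14 (48.3%) had H3K4me1 and 13 (44.8%) had both in all replicates, and 6 (20.7%) had no promoter peak. The shares of all genes were 45.9%, 27.9%, 24.3% and 32.8%. The promoters covered most were those of Pgrmc2 (92.4%) and Pgrmc1 (67.7%), which encode membrane components named for progesterone, Ppid (71.5%) and Fkbp4 (60.3%), which encode HSP90 co-chaperones of the receptors, Hsd17b11 (70.8%), a hydroxysteroid dehydrogenase gene, and Hsd11b2 (65.6%), whose enzyme inactivates glucocorticoids. No promoter peak was seen in a replicate list at Cyp11a1, Hsd3b1 and Cyp19a1, which encode enzymes that make progesterone and estrogen, or at Hsd17b1, Hsd17b2 and the membrane estrogen receptor gene Gper1.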

How the data were processed

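The data were lists of H3K27ac and H3K4me1 ChIC-Seq peaks, with IgG libraries as the controls of the calls. Per the labels, reads were handled with cutadapt, Bowtie2 and MACS2 on GRCm38.p5. How far the reads were filtered is not given in the sources used here. Per the file headers, the authors called broad, paired-end peaks with MACS 2.2.7.1 at a p cutoff of 0.05 and a broad cutoff of 0.1, with the larger library scaled down. The deposited pileup is a coverage signal at IgG depth, the deposited fold enrichment is a ratio with 1 added to each side, and the deposited p-value is on the −log10 scale. The q-value column was not used.

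Gene models were from GENCODE mouse release M21 and chromosome lengths from the GRCm38 reference. Peak bases were counted once per list with Python 3.11.15 and numpy 2.4.6. The marks were compared by an exact permutation test (20 ways to divide 6 lists), run on all 21853 genes with Benjamini-Hochberg adjustment. The interval code was tested on simulated data, where 0 of 1000 overlaps differed from a base by base count.

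The receptor genes and the gene lists were chosen with earlier results of these data known. The genes named from each list were the 6 with the highest mean promoter coverage among those with peaks in all 6 lists, and up to 6, in alphabetical order, with none. The interval and floor of a count do not apply to peak calls, so the spread between replicates is the error given.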

Additional observations from a re-analysis of the deposited data

How the results depend on the processing

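For 29 results, 350 values were computed under other settings. Of the differences, 201 kept their direction, those with the replicate block by construction, 28 reversed and 1 became weaker. Of the promoter counts, 38 stayed within 1.5 times and 4 moved further. Of the distal counts, 51 stayed within 1.5 times and 27 moved further. No comparison of 3 lists against 3 can pass 0.05, so a difference can show a change of direction or size only. The IgG depth limits the calls, and few peaks reach a −log10 p of 1.3, where −log10 p-values are those of the authors' calls. The cause of each change below was not tested, and the shares of all genes under these settings are not given here.

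With only peaks of a −log10 p of at least 1.3, the H3K27ac minus H3K4me1 difference became 0.0234 percentage points for the Esr2 window, −1.93 for its promoter, 0 for its body and 0.115 for its flanks, and 12.4 for the Pgr body. Without a change of direction, the Pgr promoter went from 1.72 to 85.2 and the Pgr window from 1.93 to 9.57 (exact permutation p = 0.7 to 0.1 for both), and the Esr1 promoter from 35.1 to 65.2 (p = 0.4 to 0.1). H3K4me1 was then at 1 promoter, both marks at 1, and double-marked distal regions numbered 2. At 5 times the mean genome coverage the Pgr window gave −2.01 and there were 63 distal regions, and 43 when all 3 replicates were required. Divided by the genome share of each list, the values were 0.0748 for the Esr1 window, 0.00616 for the Esr2 window, 1.45 and 0.130 for the Pgr and Esr1 bodies and 0.0187 for the Nr3c2 flanks. With replicates 2 and 3 alone, which shared IgG libraries across marks, they were −3.96 for the Pgr window and −0.862 for the Esr2 promoter. Flanks of 25 kb gave −0.160 for the Pgr window and flanks of 100 kb gave 0.0934 for the Esr2 window. Promoters of 250 bp left H3K4me1 at 2 genes, and a peak in at least 2 of 3 replicates put H3K27ac at 5.

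Leaving out each library in turn gave −1.54 to 4.49 for the Pgr window, −0.982 to 0.650 for the Esr2 window, −12.7 to 16.5 for the Pgr promoter, −0.884 to 0.248 for the Esr2 body, and −1.58 to 1.12, −1.98 to 0.888 and −1.69 to 0.455 for the Nr3c2, Esr2 and Nr3c1 flanks. Other differences changed in size without a change of sign, among them 14.8 to 52.6 for the Esr1 promoter and −25.7 to −1.74 for the Nr3c2 promoter. Distal regions, for which both remaining lists of the mark were then required, numbered 61 to 87.

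With the replicate number as a block, an exact sign-flip permutation test over 3 pairs, whose smallest p is 0.25, gave p = 0.25 for the Nr3c1 difference of −7.84. Deviations of same-numbered lists correlated at −0.0881, 0.319 and 0.468 over genes for replicates 1, 2 and 3. The pairs of replicates 2 and 3 shared an IgG library, and that of replicate 1 did not. H3K27ac replicate 2 and H3K4me1 replicate 1, which shared an IgG library but not a number, correlated at 0.354. Pairs without a shared IgG library were at −0.496 to 0.0716. The correlations thus went with the shared library more than with the number. The exact permutation tests do not allow for this dependence. The blocked difference equals the unblocked by construction, so only its p can differ.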

Other observations

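The pooled lists, called on the 3 replicates of a mark together and thus without replicate error, held 85 H3K27ac and 142 H3K4me1 peaks over the receptor genes. At Esr1 they joined into a single H3K27ac peak of 21421 bp over the second start, at a fold enrichment of 3.10, and an H3K4me1 peak of 25610 bp in the gene body. At Nr3c1 a pooled H3K4me1 peak of 15692 bp ended at 39489115, and a pooled H3K27ac peak of 4913 bp spanned 39487341 to 39492253 over the main group of starts. Pooled H3K4me1 had a peak of 957 bp at the first Esr2 start, where 1 replicate list had a peak of 232 bp, and pooled H3K27ac had none there.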
